A study of Rattus norvegicus with 16 samples.

Results

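Phenformin hearts after 14 days on the drug were compared with control hearts of the same day, as 4 arrays against 4, which makes 8 of the 16 arrays of the series. The members were the arrays whose titles name the phenformin diet or the control at day 14. Both groups were male RccHan Wistar rats aged 7 to 8 weeks at the start. The phenformin rats ate a diet with 3000 ppm of the drug for 14 days, and the control rats ate the same food without it (0 ppm). RNA came from 30 mg of the left ventricle apex, and the protocol names 5 animals per group. The remaining 8 arrays, 4 phenformin and 4 control hearts from day 3, entered the fit and serve for comparison. The labels call the arrays biological replicates, which is read here as separate animals. Nothing in the sources used here gives the hour at which the hearts were taken.

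Phenformin is a biguanide, a class of drugs that lower blood glucose and inhibit complex I, the entry point of the mitochondrial respiratory chain. A working heart draws most of its energy from fatty acids and switches between fatty acids, glucose and ketones as supply changes, through nuclear receptors such as PPAR alpha and through enzymes that gate pyruvate and fatty acid entry into mitochondria. The heart also runs its own circadian clock. In it the activators BMAL1 and CLOCK switch on the genes of their repressors, the PER and CRY proteins and the REV-ERB nuclear receptors, and REV-ERB in turn represses the gene of BMAL1.

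Levels are log2 values of the deposited intensities. A change is the phenformin mean minus the control mean, given with its standard error (SE) from a limma fit over all 16 arrays. Values of single arrays run from replicate 1 to 4 of each group. Of 22093 genes, 16 passed the threshold of a Benjamini-Hochberg adjusted p under 0.05 in limma, which is 0.0724% of the genes tested. Of these, 5 were higher (0.0226%) and 11 lower (0.0498%) in phenformin hearts, and 9 differed at least 1.5-fold. In all, 10 of the 16 belonged to 1 or more of the 51 gene lists used below, which hold 959 of the 22093 genes. The lists were drawn up with earlier results of these data known, so this count does not measure enrichment. In each of the 16 the 4 phenformin arrays lay apart from the 4 control arrays, as they did in 1134 genes in all (5.13%, with 451 higher or 2.04% and 683 lower or 3.09%). Counts of list members that were called or lay apart are to be read beside these shares. An unadjusted p under 0.05 was found in 10.8% of the genes, 3.87% higher and 6.96% lower, and 60 genes had an adjusted p between 0.05 and 0.10. The median change over all genes was -0.030, and 42.2% of the genes lay above 0.

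**Figure D1:**
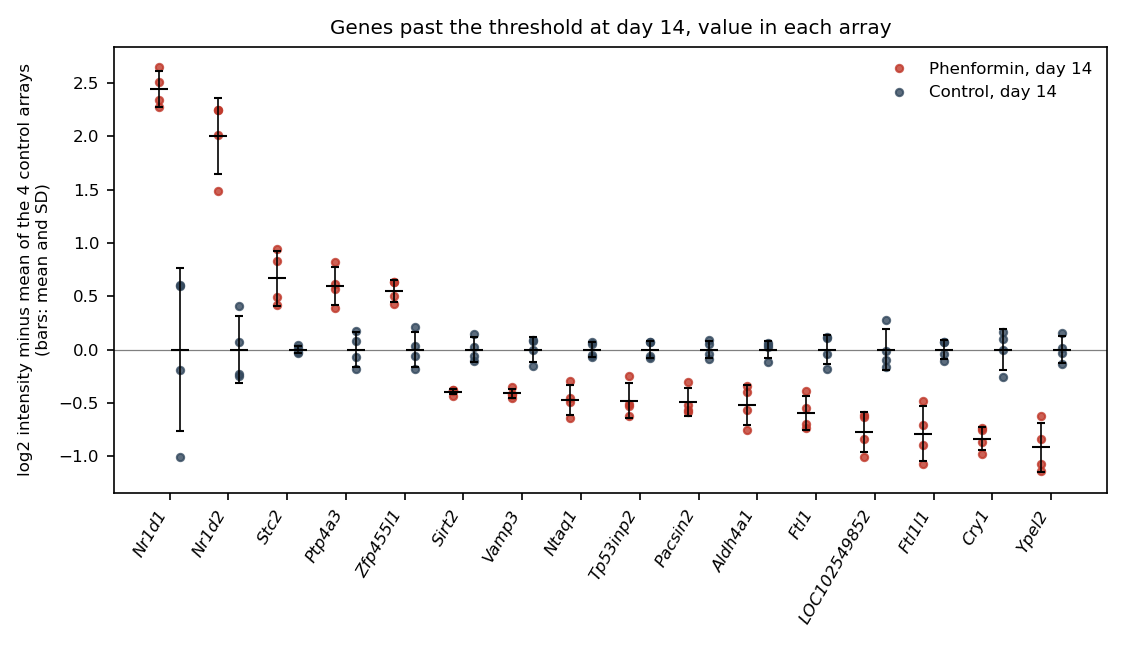
Log2 intensity of the 16 genes past the threshold at day 14 in each array, minus the mean of the 4 control arrays, with phenformin arrays left of control arrays and bars for the mean and SD of 4. The genes run from Nr1d1, 2.44 higher in phenformin hearts, to Ypel2, which fell by 0.92, and in no gene do the points of the groups overlap.

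The 8 arrays were alike in level and range. Their medians over genes lay between 6.004 and 6.07, and correlations between them across genes between 0.991 and 0.994. The 13 measured cardiomyocyte markers lay above the array median in all 8 arrays, the lowest at 13.4. On the second principal component of the 16 arrays, control replicate 1 lay at -18.6, apart from the other 7 arrays of day 14, and the 4 controls of day 3 lay on the same side, between -28.8 and -5.00. The count of genes past the threshold depended on single arrays, as 3 genes passed without phenformin replicate 3 and 3 without control replicate 1. It was 27, 9 and 7 without phenformin replicates 1, 2 and 4, and 6, 5 and 24 without control replicates 2, 3 and 4. Arrays of day 3 enter through the estimate of the spread, and the count was 11, 13, 9 and 29 without phenformin replicates 1 to 4 of that day and 7, 7, 16 and 11 without its control replicates 1 to 4. Nr1d2 and Ypel2 passed without any single array, while Nr1d1 had an adjusted p of up to 0.0655 without phenformin replicate 3 or control replicate 1. The other 13 genes each missed the threshold without 3 or more of the 16 arrays, from 3 for Cry1 to 15 for Aldh4a1.

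The genes of both REV-ERB receptors rose at day 14. Nr1d1, which encodes REV-ERB alpha, measured 10.01, 10.38, 10.24 and 10.07 in phenformin hearts, against 7.55, 8.34, 6.73 and 8.33 in control hearts. The SD was 0.169 among the phenformin arrays and 0.767 among the control arrays, yet the lowest phenformin array stood well above the highest control. The rise was 5.44-fold (log2 change 2.44, SE 0.342, adjusted p = 0.0161 in limma). Nr1d2, the gene of REV-ERB beta, measured 11.68, 12.20, 12.43 and 12.43 in phenformin hearts, against 9.95, 10.60, 9.94 and 10.25 in control hearts. Phenformin replicate 1 was the lowest of its group and still above every control, and the log2 change was 2.00 (SE 0.229, adjusted p = 0.00339).

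Cry1, whose protein holds BMAL1 and CLOCK in check, fell. It measured 7.21, 7.33, 7.11 and 7.34 in phenformin hearts, against 8.19, 7.82, 8.25 and 8.08 in control hearts, so that the groups were clear of each other. The change was -0.84 (SE 0.127, adjusted p = 0.0307). In Cry1 another probe set, dimmer than the one used, had a change of -0.33 (SE 0.12 in a fit of all probe sets). The PER genes Per1, Per2 and Per3 did not pass the test, and Per3 lay on the other side of 0 from Per1 and Per2. Per1 measured 6.54, 6.63, 6.49 and 7.08 in phenformin hearts, against 8.43, 8.45, 7.93 and 7.20 in control hearts (log2 change -1.32, SE 0.359, adjusted p = 0.169). The highest phenformin value, in replicate 4, came near the lowest control value, also in replicate 4. Per2 measured 6.33, 6.46, 6.48 and 6.35 in phenformin hearts, against 7.34, 7.04, 7.58 and 6.67 in control hearts (log2 change -0.75, SE 0.166, adjusted p = 0.0975), with no overlap. Per3 had a change of 0.52 (SE 0.15) with overlapping groups. Over the 10 clock repressors measured, 2 were called higher and 1 lower, and the groups did not overlap in 2 higher and 3 lower members. Over all genes 0.0226% were called higher and 0.0498% lower, and 2.04% lay apart and higher and 3.09% apart and lower.

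The RefSeq promoter windows of these genes, 250 bases before to 50 bases after an annotated start in build GRCr8, are shown because the clock loop is known to act through short motifs in promoters, whether or not a window holds one. Capitals mark the E-box CACGTG, bound by BMAL1 and CLOCK, the RORE, bound by REV-ERB and ROR receptors, and the D-box TTATGTAA, bound by DBP and NFIL3. Both strands were searched, no window shown held more than 1 of the motifs, and each sequence reads 5′ to 3′ along its gene. The Nr1d1 window is that of the second of its 2 starts, at chr10:84229405-84229704 on the minus strand, and holds an E-box 191 bases before the start. The window of the first start, at chr10:84231763-84232062 on the same strand and not printed, holds none of the motifs. That of Nr1d2, at chr15:9954784-9955083 on the plus strand, holds none of the 3 motifs. Bmal1, at chr1:176766078-176766377 on the plus strand, has a RORE 19 bases before its start, and Per2, at chr9:99496944-99497243 on the minus strand, a D-box 192 bases before its start.
Nr1d1: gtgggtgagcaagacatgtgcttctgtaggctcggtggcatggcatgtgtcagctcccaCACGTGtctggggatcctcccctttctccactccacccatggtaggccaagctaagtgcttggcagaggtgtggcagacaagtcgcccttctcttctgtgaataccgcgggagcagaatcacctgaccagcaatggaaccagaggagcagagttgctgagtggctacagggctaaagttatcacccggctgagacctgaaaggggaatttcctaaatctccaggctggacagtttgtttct
Nr1d2: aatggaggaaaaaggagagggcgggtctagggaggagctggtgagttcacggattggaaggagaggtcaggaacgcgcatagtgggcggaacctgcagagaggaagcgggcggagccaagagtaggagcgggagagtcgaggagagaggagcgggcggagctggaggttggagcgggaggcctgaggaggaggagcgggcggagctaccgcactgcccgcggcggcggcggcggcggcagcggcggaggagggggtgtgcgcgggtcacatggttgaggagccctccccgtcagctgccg
Bmal1: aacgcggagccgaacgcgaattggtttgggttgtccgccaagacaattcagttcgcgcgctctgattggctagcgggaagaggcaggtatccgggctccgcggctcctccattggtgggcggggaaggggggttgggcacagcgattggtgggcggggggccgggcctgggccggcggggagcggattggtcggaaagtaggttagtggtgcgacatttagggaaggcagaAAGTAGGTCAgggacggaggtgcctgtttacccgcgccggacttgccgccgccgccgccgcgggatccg
Per2: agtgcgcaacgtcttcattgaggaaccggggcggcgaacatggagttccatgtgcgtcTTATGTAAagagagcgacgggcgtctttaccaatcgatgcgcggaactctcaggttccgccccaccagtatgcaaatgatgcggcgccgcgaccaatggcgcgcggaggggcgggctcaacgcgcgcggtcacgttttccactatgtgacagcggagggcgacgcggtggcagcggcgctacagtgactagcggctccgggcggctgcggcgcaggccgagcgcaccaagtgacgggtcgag

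Of all 33469 RefSeq windows of this length, 6.42% held the E-box, 0.893% the D-box and 0.245% the RORE. Among the 16 genes past the threshold, 11 had a window and 1 of these, Nr1d1, held an E-box, while the other 2 motifs were found in 0. Of the 21 genes of the clock repressor, activator and output factor lists that were searched, 18 had a window, and 5 held an E-box: Nr1d1, Bhlhe40, Bhlhe41, Ciart and Tef. A match describes letters only.

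Bmal1, the activator gene whose window carries the RORE, did not pass the test. It measured 10.41, 9.90, 9.44 and 9.68 in phenformin hearts, against 10.63, 10.40, 10.49 and 10.51 in control hearts (log2 change -0.65, SE 0.15, adjusted p = 0.113). Phenformin replicates 2, 3 and 4 lay below every control, and replicate 1 lay within the control range. None of the 6 activators and ROR receptors measured had groups that did not overlap, and their median change was -0.021.

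Among clock outputs, the repressor gene Nfil3 and the activator gene Dbp compete for the same D-box. Nfil3 measured 5.97, 5.57, 5.76 and 5.97 in phenformin hearts, against 6.44, 6.29, 6.28 and 6.41 in control hearts (log2 change -0.54, SE 0.111, adjusted p = 0.0679). Dbp measured 7.42, 7.92, 8.19 and 8.42 in phenformin hearts, against 6.95, 7.14, 7.20 and 7.17 in control hearts (log2 change 0.87, SE 0.206, adjusted p = 0.124). In each of these the groups lay apart, Nfil3 below and Dbp above the controls, with neither past the test. The repressor gene Bhlhe41 had a change of 0.68 (SE 0.174), where phenformin replicate 1 fell within the control range. Of the 15 measured outputs and clock-controlled genes, 1 was called lower, Ypel2, against 0.0498% of all genes. This list was drawn up with earlier results of these data known, so the call is no evidence of a clock role. The groups did not overlap in 1 higher and 3 lower members, against 2.04% and 3.09% of all genes. Their median was -0.23.

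**Figure D2:**
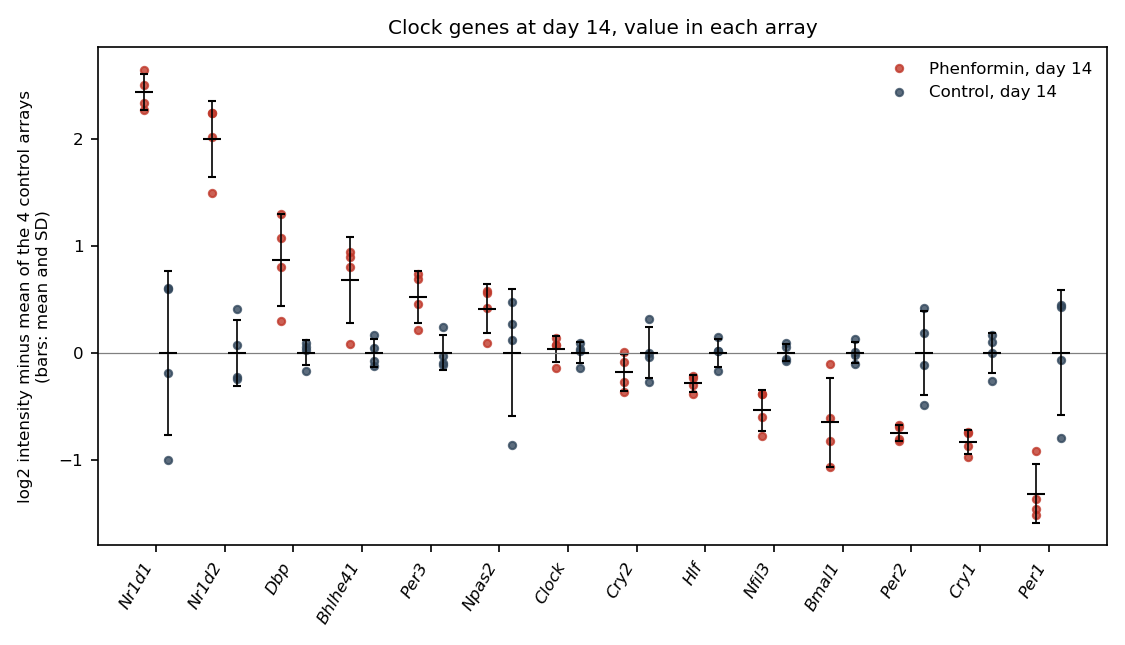
Log2 intensity of 14 clock genes in each array at day 14, minus the mean of the 4 control arrays, with phenformin arrays left of control arrays and bars for the mean and SD of 4. Nr1d1 and Nr1d2 stand 2.44 and 2.00 above the controls, and Cry1, which fell by 0.84, Per2 and Per1 lie at the low end.

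Ypel2, a member of the small yippee-like family of conserved zinc-binding proteins, fell, with the smallest adjusted p after Nr1d2. It measured 9.73, 9.28, 9.52 and 9.22 in phenformin hearts, against 10.37, 10.32, 10.51 and 10.21 in control hearts. Every phenformin array was below every control by a clear margin, and the change was -0.92 (SE 0.114, adjusted p = 0.00496). Of the 5 family members measured, the other 4 did not pass, with Ypel1 at -0.44 (SE 0.168) and overlapping groups.

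No gene of the lists of fatty acid handling, glucose use or the citric acid cycle passed the test over all genes, though several lay close to the threshold. Txnip, whose protein binds thioredoxin and restrains glucose uptake, measured 16.30, 16.06, 15.90 and 15.00 in phenformin hearts, against 14.14, 13.79, 14.44 and 13.62 in control hearts. Arrdc4, an arrestin gene that shares with Txnip the glucose-sensing factor MondoA, measured 9.51, 9.68, 9.93 and 9.51 in phenformin hearts, against 8.56, 8.56, 9.18 and 8.52 in control hearts. In both the groups lay apart, and phenformin replicate 4 was the lowest for Txnip while control replicate 3 stood high for Arrdc4. Their changes were 1.82 (SE 0.334, adjusted p = 0.0522) and 0.95 (SE 0.181, adjusted p = 0.0561). The remaining 8 of the 10 genes of the MondoA list ranged from -0.27 for Mlxipl to 0.36 for Klf10, the ends of the range, and 1 of them, Mlx, the partner of MondoA, had groups that did not overlap (log2 change -0.20, SE 0.0865).

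PPAR alpha target genes, switched on when fatty acids are plentiful, lay mostly above 0. Of 31 measured, 27 lay above 0 with a median of 0.21, although 0 were called. In 12 the phenformin arrays lay above all controls and in 1 below them, where 2.04% and 3.09% of all genes did. This list was drawn up with earlier results of these data known, so these counts do not measure enrichment. At day 3 its median was 0.18, with 26 members above 0. The median of the list in each array lay between 0.032 and 0.19 in phenformin hearts, against -0.20 to -0.0091 in control hearts, relative to each gene's mean. Pdk4, whose kinase shuts off pyruvate entry, measured 15.68, 17.42, 16.77 and 15.67 in phenformin hearts, against 14.40, 13.07, 14.97 and 13.75 in control hearts. The groups were apart but scattered, with a change of 2.34 (SE 0.771, adjusted p = 0.269). Ucp3, a mitochondrial carrier of the inner membrane, measured 8.29, 9.51, 8.52 and 8.48 in phenformin hearts, against 7.02, 6.61, 7.62 and 7.46 in control hearts (log2 change 1.53, SE 0.314, adjusted p = 0.0679). Phenformin replicate 2 held the highest value of its group for both.

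Angptl4, an inhibitor of lipoprotein lipase, measured 6.56, 8.38, 6.81 and 6.29 in phenformin hearts, against 5.49, 5.61, 5.84 and 5.77 in control hearts (log2 change 1.33, SE 0.358, adjusted p = 0.167). Replicate 2 was again far above the other phenformin arrays. Cpt1a, the liver-type enzyme that hands fatty acids to carnitine, measured 10.31, 10.76, 10.35 and 11.03 in phenformin hearts, against 9.86, 9.51, 9.79 and 9.91 in control hearts (log2 change 0.85, SE 0.169, adjusted p = 0.0679). Cpt1b, the muscle form, had a change of 0.32 (SE 0.0829), and Mlycd, which breaks down the malonyl-CoA that blocks both enzymes, of 0.44 (SE 0.1), each with groups apart. Ucp2, a related carrier in the same list, lay on the other side of 0. It measured 15.53, 15.32, 15.33 and 15.57 in phenformin hearts, against 16.20, 16.07, 16.42 and 16.16 in control hearts, with no overlap (log2 change -0.78, SE 0.148, adjusted p = 0.0569).

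The 27 genes of fatty acid oxidation had 22 members above 0 and a median of 0.12, and 3 had phenformin arrays above all controls, Ucp3, Hsd17b4 and Hadhb, the last a subunit of the trifunctional protein (0.27, SE 0.0754), and 1, Ucp2, lay below all controls. Of 25 genes of fatty acid uptake and the carnitine shuttle, 20 lay above 0 with a median of 0.074, while 8 were apart and higher and 1, Slc27a4, apart and lower (-0.073, SE 0.0788, named after its value was seen). Triglyceride genes were split evenly, 16 above and 16 below 0 of 32, with 4 apart and higher and 1 apart and lower. Over all genes the shares were 2.04% and 3.09%. In that list Gpam, whose acyltransferase takes the entry step of triglyceride synthesis, measured 13.12, 13.64, 13.70 and 13.46 in phenformin hearts, against 12.29, 12.44, 13.04 and 12.43 in control hearts. The groups lay just apart, and the change was 0.93 (SE 0.168, adjusted p = 0.0522). Fatty acid and sterol synthesis had 4 of 24 members above 0 and a median of -0.11, with the desaturase gene Scd at -0.37 (SE 0.106) and Fdft1, of the cholesterol pathway, at 0.49 (SE 0.114).

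Glucose genes had 13 of 43 members above 0 and a median of -0.062. Slc2a4, the insulin-regulated glucose transporter GLUT4, measured 11.87, 12.31, 12.00 and 12.50 in phenformin hearts, against 12.65, 12.74, 12.88 and 12.63 in control hearts (log2 change -0.55, SE 0.124, adjusted p = 0.103). Gys1, the muscle glycogen synthase, measured 12.74, 12.75, 12.71 and 12.85 in phenformin hearts, against 13.15, 13.35, 13.17 and 13.12 in control hearts (log2 change -0.44, SE 0.086, adjusted p = 0.0669). Both lay below every control without passing the test. Hk1, a hexokinase, lay above every control at 0.40 (SE 0.0997). In all, 3 glucose genes were apart and higher and 3 apart and lower, where 2.04% and 3.09% of all genes were. Of 21 genes of the citric acid cycle, 6 lay above 0 with a median of -0.048, and 3 were apart and lower: the pyruvate carboxylase gene Pc at -0.40 (SE 0.101) and the malate dehydrogenase genes Mdh1 at -0.18 (SE 0.053) and Mdh2 at -0.12 (SE 0.064).

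**Figure D3:**
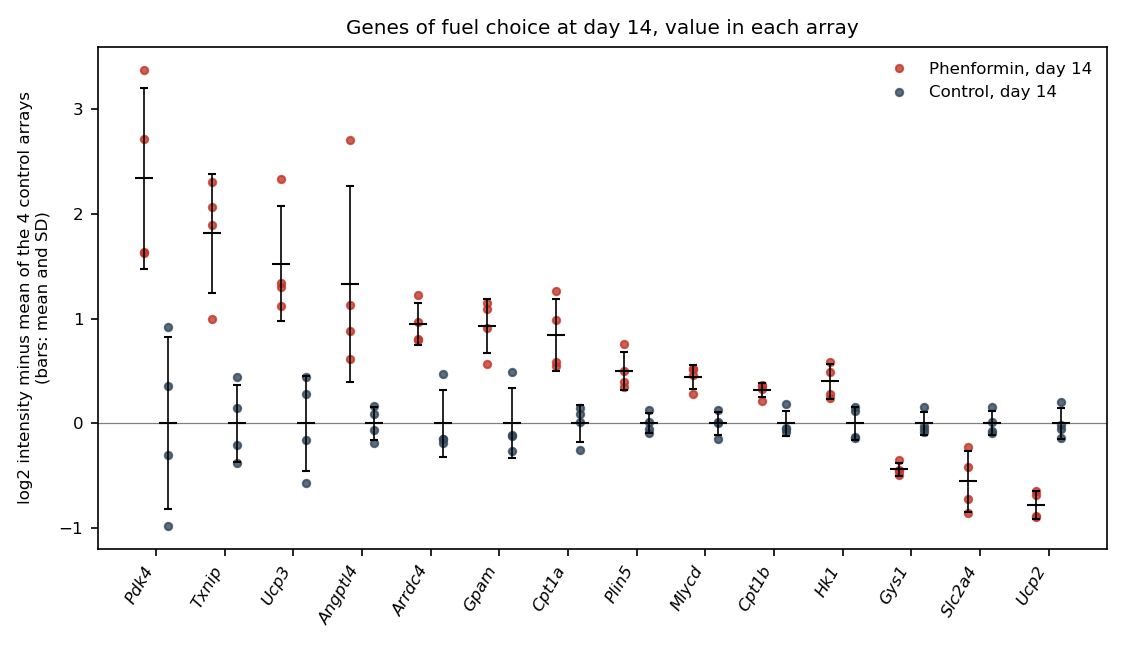
Log2 intensity of 14 genes of fuel choice in each array at day 14, minus the mean of the 4 control arrays, with phenformin arrays left of control arrays and bars for the mean and SD of 4. Pdk4, Txnip, Ucp3 and Angptl4 lie between 1.33 and 2.34 above the controls with wide scatter, and none of the 14 genes passed the test over all genes.

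Amino acid and aldehyde breakdown held 1 of the genes that fell. Aldh4a1, the mitochondrial enzyme that completes proline breakdown to glutamate, measured 9.36, 9.54, 9.77 and 9.71 in phenformin hearts, against 10.14, 10.15, 9.99 and 10.17 in control hearts. The groups lay apart, with a change of -0.52 (SE 0.091, adjusted p = 0.0466). A second, much dimmer probe set of Aldh4a1 had a change of -0.041 (SE 0.0969 in a fit of all probe sets). Aldh2, the mitochondrial dehydrogenase that clears acetaldehyde and lipid aldehydes, measured 14.22, 14.25, 14.22 and 14.21 in phenformin hearts, against 14.66, 14.54, 14.54 and 14.63 in control hearts (log2 change -0.37, SE 0.0743, adjusted p = 0.0679). The 4 phenformin values of Aldh2 were almost the same and all below the controls. Ivd, of leucine breakdown, and Dbt, a subunit of the branched-chain ketoacid dehydrogenase, were apart and lower too, at -0.35 (SE 0.0755, adjusted p = 0.0941) and -0.50 (SE 0.119). Of the 28 members, 19 lay below 0 with a median of -0.089, and the median of the list in each array lay between -0.15 and 0.012 in phenformin hearts, against 0.031 to 0.11 in control hearts.

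Complex I, the target of biguanides, showed no subunit past the test. Of 35 nuclear-encoded subunits 25 lay below 0, over a range of -0.29 to 0.080. Their median was -0.036, close to the -0.030 of all genes. Apart and lower were 2, Ndufb9 (-0.18, SE 0.0626) and Ndufc2 (-0.20, SE 0.0806), a share near the 3.09% of all genes. Subunits of complexes II to V had 26 of 34 below 0, a median of -0.034 and the same number, 2, apart and lower. These were Uqcr11 (-0.28, SE 0.0816) and Atp5pb (-0.13, SE 0.0541), also near the share of all genes. A second, dimmer probe set of Atp5pb had a change of -0.0025 (SE 0.0809 in a fit of all probe sets). A pair of assembly genes lay closer to the threshold in opposite directions. Coa7, an assembly factor of cytochrome c oxidase, measured 7.58, 7.75, 7.68 and 7.81 in phenformin hearts, against 7.23, 7.32, 7.18 and 7.32 in control hearts (log2 change 0.44, SE 0.0796, adjusted p = 0.0522). Higd2a, which helps form respiratory supercomplexes, measured 10.02, 9.77, 9.79 and 9.76 in phenformin hearts, against 10.29, 10.55, 10.20 and 10.28 in control hearts (log2 change -0.50, SE 0.0938, adjusted p = 0.0561). In both genes the groups lay apart. The 27 regulators around AMPK, PGC-1, PPAR and ERR had 0 called members and a median of -0.0024. In this list 2 were apart and higher and 1, Ppard, apart and lower (-0.32, SE 0.0873), where 2.04% and 3.09% of all genes were. Ppara, the gene of PPAR alpha, had a change of -0.31 (SE 0.105), Ppargc1b of 0.43 (SE 0.151) and Rxrg of 0.50 (SE 0.164), each with overlapping groups. Ppargc1a, the gene of PGC-1 alpha, had a change of -0.15 (SE 0.15).

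Ferritin stores iron in a shell of heavy and light chains, and 2 light chain genes, Ftl1 and Ftl1l1, fell. Ftl1 measured 10.51, 10.36, 10.17 and 10.20 in phenformin hearts, against 10.72, 10.86, 11.01 and 11.02 in control hearts (log2 change -0.59, SE 0.0941, adjusted p = 0.0307). Ftl1l1, a like-named copy, measured 10.15, 10.38, 9.96 and 9.78 in phenformin hearts, against 10.93, 10.75, 10.93 and 10.82 in control hearts (log2 change -0.79, SE 0.129, adjusted p = 0.0387). All phenformin values of both lay below all controls. Probe sets of near-identical copies can pick up the same RNA. How alike these copies are was not checked, so they are not counted as independent measurements.

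A grouping of the other light chain copies, made after their values were seen, gave changes of -0.80 for LOC100360087, which RefSeq lists with Ftl1 as a synonym (SE 0.146, adjusted p = 0.0522), -0.75 for Ftl1l7 (SE 0.197) and -0.55 for the pseudogene Ftl1-ps5 (SE 0.103, adjusted p = 0.0561), each with groups apart. Ftl1l5 at -0.50 (SE 0.137) and Ftl1l6 at -0.28 (SE 0.0915) had overlapping groups. The heavy chain gene Fth1 measured 12.43, 12.41, 12.32 and 12.43 in phenformin hearts, against 12.47, 12.39, 12.50 and 12.43 in control hearts. Its groups overlapped, and the change was -0.050 (SE 0.0546, 95% interval -0.17 to 0.066). Tfrc, the transferrin receptor that takes up iron, had a change of 0.66 (SE 0.276) with overlapping groups. Of the 24 iron genes measured 2 were called, both lower, 1 was apart and higher and 3 apart and lower, and the median was -0.074. Over all genes 0.0498% were called lower, 2.04% lay apart and higher and 3.09% apart and lower. Red blood cell markers lay below 0 as well, in 14 of 14 with a median of -0.45, and their part in the ferritin values was not tested.

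Pacsin2, Vamp3 and Tp53inp2, genes of membrane traffic and autophagy, fell. They were grouped here after their values were seen, and Vamp3 and Tp53inp2 belonged to none of the lists. Pacsin2, whose protein bends membranes at caveolae and endosomes, measured 12.00, 12.02, 12.07 and 12.28 in phenformin hearts, against 12.64, 12.49, 12.67 and 12.54 in control hearts (log2 change -0.49, SE 0.082, adjusted p = 0.0411). Vamp3, a SNARE of recycling endosomes, measured 8.72, 8.65, 8.62 and 8.64 in phenformin hearts, against 9.14, 8.91, 9.16 and 9.06 in control hearts (log2 change -0.41, SE 0.0697, adjusted p = 0.0457). The phenformin arrays of Vamp3 differed from one another by little, and in both genes they lay below all controls. Tp53inp2, a cofactor of autophagosome formation, measured 7.12, 7.14, 7.03 and 7.41 in phenformin hearts, against 7.59, 7.73, 7.58 and 7.73 in control hearts (log2 change -0.48, SE 0.0849, adjusted p = 0.0466). Its phenformin replicate 4 was the nearest to the controls.

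Short of the threshold, and likewise placed in this group after their values were seen, were Snap29 and Cln8. Snap29 is a SNARE that fuses autophagosomes with lysosomes (-0.49, SE 0.0885, adjusted p = 0.0522). Cln8 carries lysosomal enzymes out of the endoplasmic reticulum (-0.51, SE 0.0982, adjusted p = 0.0574). Of 30 autophagy and lysosome genes 0 were called and 21 lay below 0, with a median of -0.047 against -0.030 over all genes. Among these 3 were apart and lower, where 3.09% of all genes were: Gabarap (-0.28, SE 0.0754) and Map1lc3a (-0.39, SE 0.128), whose proteins coat autophagosomes, and Bnip3, a mitophagy receptor (-0.29, SE 0.115). The 16 genes of the pacsin family and membrane shaping had 13 below 0 and a median of -0.13, and the recycling factor Ehd3 was apart and lower at -0.49 (SE 0.144).

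The secreted glycoprotein stanniocalcin 2 blocks PAPP-A, a protease that frees insulin-like growth factors from their binding proteins, and its gene Stc2 rose. Stc2 measured 8.78, 9.20, 8.86 and 9.32 in phenformin hearts, against 8.39, 8.34, 8.35 and 8.41 in control hearts. The controls were tightly grouped and all below the phenformin arrays, whose replicates 2 and 4 were the highest, and the rise was 1.59-fold (log2 change 0.67, SE 0.104, adjusted p = 0.0307). Of the 15 genes of this axis it was the one called. The binding protein gene Igfbp5 measured 11.90, 11.64, 10.98 and 11.43 in phenformin hearts, against 13.16, 12.59, 12.04 and 12.77 in control hearts, apart but not past the test (log2 change -1.15, SE 0.279, adjusted p = 0.13).

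Ptp4a3, which encodes the phosphatase PRL-3, rose. It measured 10.52, 10.96, 10.74 and 10.70 in phenformin hearts, against 10.06, 9.95, 10.21 and 10.31 in control hearts, without overlap (log2 change 0.60, SE 0.106, adjusted p = 0.0466). PRL phosphatases bind the CNNM magnesium transport proteins, and of the 9 genes of both families 1 more, Cnnm3, had phenformin arrays above all controls (0.32, SE 0.103). Sirt2, an NAD-dependent deacetylase found mostly in the cytosol, measured 11.57, 11.52, 11.56 and 11.57 in phenformin hearts, against 11.89, 12.10, 11.98 and 11.84 in control hearts (log2 change -0.39, SE 0.0685, adjusted p = 0.0466). The phenformin values were nearly equal and all lower. Ntaq1, an amidohydrolase that prepares proteins with an N-terminal glutamine for degradation, measured 8.41, 8.55, 8.75 and 8.59 in phenformin hearts, against 9.12, 8.97, 8.99 and 9.10 in control hearts (log2 change -0.47, SE 0.0809, adjusted p = 0.0466). The last 2 called genes were the zinc finger gene Zfp455l1, which rose by 0.55 (SE 0.0966, adjusted p = 0.0466), and LOC102549852, a provisional symbol, which fell by 0.77 (SE 0.121, adjusted p = 0.0307).

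Among the genes that came nearest to the threshold without passing, those not given above were Mapre2, which binds the growing ends of microtubules (-0.38, SE 0.0726, adjusted p = 0.0561), Tppp, which promotes tubulin polymerisation (-0.48, SE 0.0946), Pnrc1, a coregulator of nuclear receptors (-0.66, SE 0.125), and Tmtc1, a mannosyltransferase (-0.46, SE 0.0867), all 4 below the controls. Above them lay Cadps, which primes dense-core vesicles for release (0.62, SE 0.12), Impa2, an inositol monophosphatase (0.63, SE 0.125), and the pseudogene Zfp273l-ps1 (0.45, SE 0.0823). The brighter and dimmer probe sets of the kinase gene Stk35 had changes of 0.40 and -0.34 (SE 0.0916 and 0.262 in a fit of all probe sets), and those of Slc25a21, a mitochondrial oxodicarboxylate carrier, of -0.68 and -0.20 (SE 0.143 and 0.16).

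No gene of the immediate early and heat shock lists passed the test, and most lay below 0. Immediate early genes, which answer a stimulus within minutes, had 24 of 29 below 0, a median of -0.19 and 6 apart and lower. Over all genes 42.2% lay above 0 and 3.09% were apart and lower. Atf3, a stress-induced transcription factor, measured 6.37, 6.43, 6.15 and 6.01 in phenformin hearts, against 8.16, 7.81, 7.28 and 7.74 in control hearts (log2 change -1.51, SE 0.342, adjusted p = 0.111). Rgs2, which dampens G protein signals, measured 8.32, 8.09, 7.50 and 7.64 in phenformin hearts, against 9.71, 9.06, 8.93 and 9.0 in control hearts (log2 change -1.29, SE 0.302, adjusted p = 0.12). All control arrays of Atf3 and Rgs2 stood above all phenformin arrays. The orphan receptor gene Nr4a1 was apart as well, at -1.72 (SE 0.428), over controls that ranged from 7.62 to 9.94.

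Cytosolic heat shock proteins had 24 of 26 genes below 0 with a median of -0.20. In this list 5 were apart and lower, where 3.09% of all genes were, among them Hspb1 (-0.48, SE 0.162), a small chaperone, and Hsp90ab1 (-0.21, SE 0.0562). The median of this list in each array lay between -0.17 and -0.022 in phenformin hearts, against 0.0053 to 0.18 in control hearts. Chaperones of the endoplasmic reticulum had 18 of 21 below 0 with a median of -0.12 and 0 apart, while the 16 mitochondrial chaperones and proteases had a median of -0.035 and 0 apart. The integrated stress response, which mitochondrial damage can switch on through ATF4, had Stc2 as the 1 called member of 39, and 31 lay below 0 with a median of -0.13. Of its members 1 was apart and higher, Stc2, and 3 apart and lower, where 2.04% and 3.09% of all genes were. The 3 were Slc7a1, an amino acid transporter (-0.46, SE 0.132), Chac1, which degrades glutathione (-0.50, SE 0.152), and Wars1, a tRNA synthetase (-0.29, SE 0.0898). Ppp1r15a, a phosphatase subunit that ends the response, had a change of -0.50 (SE 0.154) with overlapping groups. Other markers of the response had overlapping groups, with Gdf15 at -0.13 (SE 0.126), Fgf21 at -0.048 (SE 0.151), Trib3 at -0.022 (SE 0.168), Asns at -0.13 (SE 0.0772) and Ddit3 at -0.13 (SE 0.102).

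Targets of the glucocorticoid receptor had 16 of 23 below 0 with a median of -0.25, 2 apart and higher and 4 apart and lower. Among the higher was Pdk4 (2.34, SE 0.771), and among the lower Tsc22d3 (-0.57, SE 0.154) and Per1. Pdk4 also belongs to the PPAR alpha and glucose lists and Per1 to the clock repressors, so these lists are not independent. Of 27 genes of the NRF2 pathway and redox defence, 1 was apart and higher, the thioredoxin reductase gene Txnrd1 (0.32, SE 0.0857), and 3 apart and lower, among them the glutathione peroxidase gene Gpx1 (-0.46, SE 0.124). Over all genes 2.04% were apart and higher and 3.09% apart and lower. None of either list was called.

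Nppa, the gene of atrial natriuretic peptide, which ventricles express under load, did not pass the test. It measured 17.12, 17.25, 15.54 and 16.23 in phenformin hearts, against 15.01, 14.18, 15.37 and 13.82 in control hearts (log2 change 1.94, SE 0.42, adjusted p = 0.0904). The groups were apart, but phenformin replicate 3 lay close to control replicate 3. Nppb, of brain natriuretic peptide, measured 13.01, 14.63, 14.03 and 12.71 in phenformin hearts, against 13.95, 13.21, 13.13 and 14.46 in control hearts, with overlap throughout (log2 change -0.091, SE 0.365, 95% interval -0.86 to 0.68). Atrial cardiomyocyte markers other than Nppa had overlapping groups in 9 of 9, with Myl7, the atrial myosin light chain, at 0.28 (SE 0.13), and the part of atrial tissue in the Nppa values was not tested. Tcap, the telethonin gene of the Z-disc, measured 13.98, 14.54, 15.11 and 14.46 in phenformin hearts, against 13.56, 12.82, 13.58 and 13.38 in control hearts (log2 change 1.19, SE 0.233, adjusted p = 0.0669), and was the 1 of 20 sarcomere genes whose groups lay apart. The 13 cardiomyocyte markers had a median of 0.022, and of 24 genes of ion channels and calcium handling 0 were apart.

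Markers of platelets and red blood cells lay lower in phenformin hearts. Those of neutrophils had 9 of 12 below 0 and a median of -0.16, and those of T and B cells 9 of 11 and -0.075, each with 0 apart. In a piece of tissue, fewer cells of a type and less RNA per cell cannot be told apart. Of 13 platelet markers 13 lay below 0, with a median of -0.49, and 5 were apart and lower, where 3.09% of all genes were. The median of the list in each array lay between -0.41 and -0.0054 in phenformin hearts, against 0.037 to 0.52 in control hearts. Tubb1, the tubulin of platelets, measured 5.06, 4.20, 4.35 and 4.70 in phenformin hearts, against 5.88, 5.55, 5.92 and 5.14 in control hearts (log2 change -1.04, SE 0.213, adjusted p = 0.0679), and the platelet receptor gene Clec1b measured 6.80, 6.18, 6.29 and 6.04 in phenformin hearts, against 7.47, 7.46, 8.94 and 7.13 in control hearts (log2 change -1.42, SE 0.366). Control replicate 3 was the highest for both.

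All 14 measured markers of red blood cells lay below 0, with a median of -0.45, and 3 were apart and lower, where 3.09% of all genes were. The median of this list in each array lay between -0.66 and -0.055 in phenformin hearts, against -0.13 to 0.61 in control hearts, so that these ranges overlapped. Slc4a1, the anion exchanger of red cells, measured 8.35, 8.22, 8.67 and 8.06 in phenformin hearts, against 9.35, 8.73, 9.98 and 9.07 in control hearts (log2 change -0.95, SE 0.226, adjusted p = 0.123). No marker of either cell type passed the test over all genes. The part of blood in the 11 genes that fell was not tested.

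Markers of other cell types of the ventricle lay nearer to 0. Endothelial markers had 9 of 13 below 0 and a median of -0.14, fibroblast markers 13 of 16 and -0.16, and macrophage markers 9 of 15 and -0.093, with 0, 0 and 1 of their genes apart. Fibroblast markers set the phenformin arrays against each other, with list medians of 0.28, 0.22, -0.45 and -0.42 in phenformin hearts, against a range of -0.14 to 0.25 in control hearts. Genes of collagen and matrix had a median of -0.059 over 40 members, genes of the cell cycle -0.11 over 37, interferon-stimulated genes 0.017 over 26 and cytosolic ribosomal proteins 0.024 over 47, each with 0 apart.

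**Figure D4:**
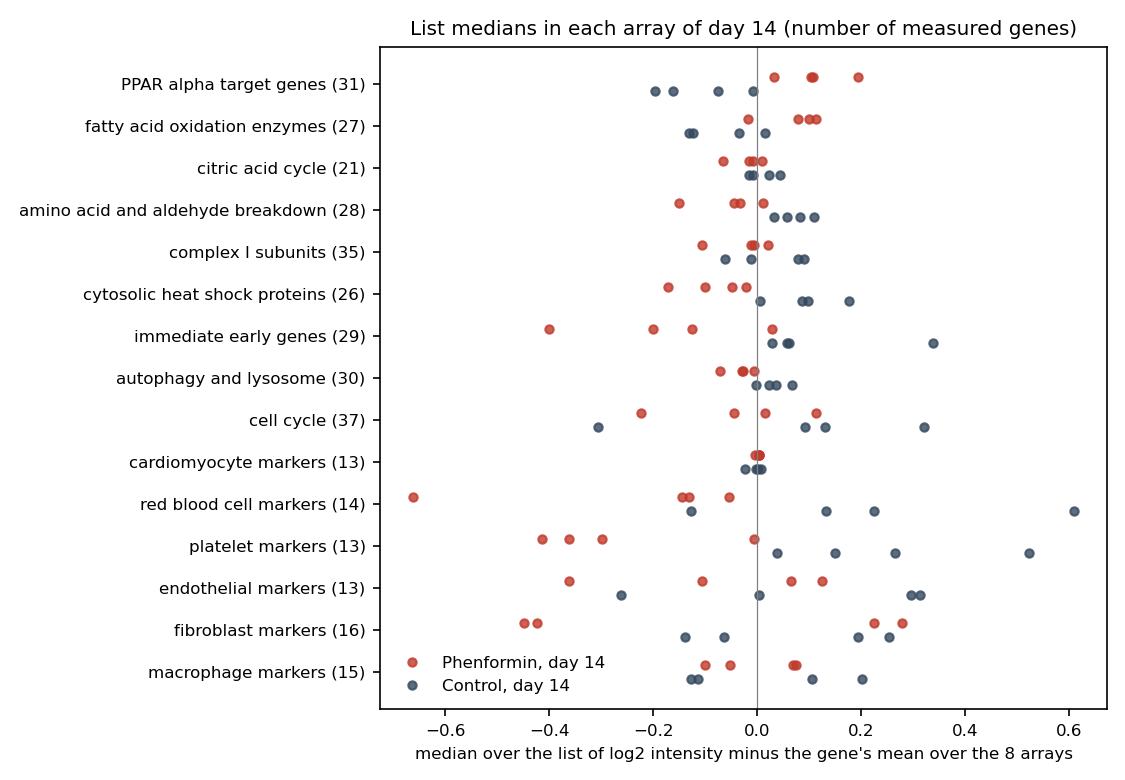
Median over each list of log2 intensity minus the gene's mean over the 8 arrays of day 14, with 1 point per array, phenformin above control, and the number of measured genes in brackets. PPAR alpha targets lie higher in all phenformin arrays, heat shock and amino acid breakdown genes lower, platelet markers lower, and red blood cell markers lower with overlap.

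Compared with day 3, the genes past the threshold at day 14 mostly lay on the same side, and both days had their own controls. Of the 16, 14 had the same direction at day 3 and 5 were also past the threshold there, among 125 genes called at day 3 (0.566%). The 5 shared genes, Nr1d1, Nr1d2, Cry1, Stc2 and Ptp4a3, are 31.25% of the day 14 genes and 4% of the day 3 genes. At day 3 Nr1d1 had a change of 3.10 and Nr1d2 of 2.10, and Cry1 fell by 0.94. The median absolute change of the 16 genes was 0.596 at day 14 and 0.26 at day 3, and that of the 125 genes 0.138 at day 14 and 0.769 at day 3. Each set was chosen by its own day, which on its own favours that day.

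The test of the difference between the day 14 and day 3 effects called 0 genes in limma, while 1546 genes (7%) had an unadjusted p under 0.05. The count was 1 without control replicate 2 of day 3. Sirt2 and Ntaq1 had the widest gap for their error among the 16. Sirt2 had a change of -0.39 at day 14 and of 0.11 at day 3, a difference of -0.51 (95% interval -0.71 to -0.30, adjusted p = 0.338). Ntaq1 had a change of -0.47 at day 14 and of 0.14 at day 3, a difference of -0.61 (95% interval -0.85 to -0.37, adjusted p = 0.338). For Ypel2 the difference was -0.55 (95% interval -0.89 to -0.21, adjusted p = 0.445). These intervals are not adjusted for the number of genes tested. For Nr1d2 the difference was -0.10 (95% interval -0.79 to 0.58).

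Mki67, a marker of cycling cells that was past the threshold at day 3, did not pass at day 14. It measured 8.66, 8.03, 8.14 and 6.89 in phenformin hearts, against 9.10, 6.73, 8.24 and 8.41 in control hearts (log2 change -0.19, SE 0.389), where the day 3 change was -2.75. The difference was 2.56 (95% interval 1.39 to 3.72, adjusted p = 0.353). Control replicate 2 was the lowest of the 8 arrays and phenformin replicate 4 the next. Platelet markers had a median change of -0.49 at day 14, against -0.041 at day 3, and red blood cell markers of -0.45 at day 14, against -0.44 at day 3. Pdk4 had a change of 0.26 at day 3 (SE 0.771), and its difference between days of 2.08 had a 95% interval of -0.23 to 4.39. Txnip had a change of 1.82 at day 14 and of 1.98 at day 3, with a 95% interval of -1.16 to 0.84 for the difference.

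**Figure D5:**
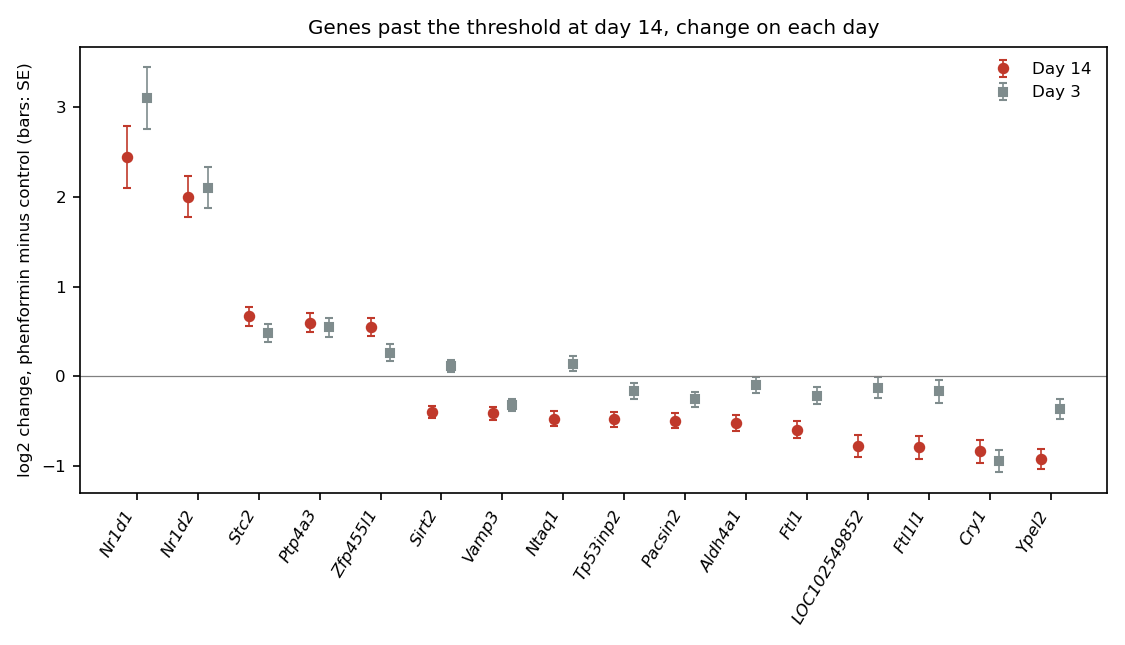
Log2 change, phenformin minus control, of the 16 genes past the threshold at day 14, with day 14 left of day 3 in each pair and bars for the SE of the limma fit. Nr1d1, Nr1d2, Stc2, Ptp4a3 and Cry1 passed the threshold on both days, and Sirt2 and Ntaq1 lie below 0 at day 14 and above 0 at day 3.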

How the data were processed

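Per the labels' protocols, 300 ng of RNA from the left ventricle apex was labelled for each Affymetrix whole-transcript array. The authors made the deposited linear intensities with RMA, per the submitters' processing notes (no version given). The scaling step behind array maxima of 999968 to 999973 and the genome build are not given in the sources used here. Folds are therefore folds of the deposited intensities.

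Log2 of the 68842 deposited values per array was taken with no further normalisation. The platform annotation named exactly 1 gene for 23446 probe sets, several for 505 and none here for 44891. Gene IDs of 22077 of the probe sets with 1 symbol matched RefSeq, and 1 symbol had changed. The brightest probe set stood for each of 22093 genes, and 1182 genes had more than 1.

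The gene test was limma 3.58.1 under R 4.3.3, with 1 mean per group over 16 arrays, a mean-variance trend and Benjamini-Hochberg adjustment over all genes, two-sided. Files were read with data.table (version 1.17.8), and motifs and figures were made with pandas 2.3.3, numpy 2.4.6 and matplotlib 3.10.9. The fit was tested on simulated data. Lists are described by counts and medians without a test. Groups are called apart where all 4 arrays of one lie above or below all 4 of the other. The members and the lists were chosen with earlier results of these data known.

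Genes are named where they passed the threshold, were among the 20 next by p, were among the 5 of smallest p in a list, belonged to a set of marker genes, or were among the first 10 at day 3 or in the difference between days. Alternatives changed the filters on dim or bright genes, the normalisation, the variance model, the weights, the arrays, the probe sets and the threshold, added the replicate number as a block, or left out each array in turn. The array number limits the precision, with a median SD between arrays of 0.151 in phenformin hearts and 0.163 in control hearts on the log2 scale. Replicate numbers were not used as pairs in the main fit. Same-numbered arrays of both day 14 groups had correlations of -0.127, -0.0531, 0.113 and -0.0141 in their deviations from the group means. The highest correlation of each phenformin array with a control of another number was 0.0557, 0.109, 0.000975 and 0.0911. So few values cannot show whether the samples were paired.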

Additional observations from a re-analysis of the deposited data

Results flagged for a closer look

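Dixon's test was applied to the 16 genes past the threshold and a set of marker genes, 60 genes in all, in both groups of day 14, which makes 120 groups of 4 arrays. It marked 4 of them, where chance alone marks about 1 in 20. For Ddit3, a transcription factor of the stress response, phenformin replicate 1 measured 8.18 on the log2 scale, below the other 3 phenformin arrays. For Fth1, the ferritin heavy chain, phenformin replicate 3 measured 12.3, also below the rest of its group. For Arrdc4, control replicate 3 measured 9.18, well above the other 3 controls. For Ankrd1, a cardiac stress gene, control replicate 4 measured 18.9, below the other controls.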

How the results depend on the processing

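The count of 16 genes past the threshold was 33 when genes below the 25th percentile of mean level were dropped and 60 at the 50th percentile, 8 with array medians aligned, 3 without the mean-variance trend, 8 with array weights, 1 with the 8 arrays of day 14 alone, 8 with the mean of a gene's probe sets, 2 over all probe sets, 2 at an adjusted p under 0.01 and 9 when a change of 1.5-fold was also required. The replicate numbers were treated as names only in the main fit, and with the replicate block the count was 5, and 4 among list members. Leaving out single arrays gave between 3 and 29. Of the 16, 10 belonged to lists, a count of 21 above the 50th percentile, 3 without the trend, 1 with the 8 arrays, 2 over all probe sets, 2 at the stricter threshold and 3 to 17 without single arrays. Genes whose groups did not overlap numbered 3107 over all probe sets, which are more features, and between 1134 and 2658 without single arrays, where fewer arrays must lie apart. The difference between days had 0 genes past the threshold and 0 to 1 without single arrays. An alternative chosen after seeing the data left out control replicate 1 of day 14 and control replicate 2 of day 3 together, and gave 4 genes, 3 of them in lists, and 2658 without overlap. The cause was not tested for the other shifts. Nr1d2 kept its call in all 30 alternatives of the first set and Ypel2 in 29, missing it with the 8 arrays alone (adjusted p = 0.0594 in limma). Nr1d1 kept it in 25. In the 16 called genes no alternative reversed a direction. Their groups lay apart, so leaving out 1 array or changing the threshold could not have reversed it.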
